A study of Mus musculus with 14 samples.

Results

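The 69 genes described here encode ligands and receptors of axon guidance: the semaphorins of classes 3 to 7 with the plexins and neuropilins, the Slits with the Robo receptors, the netrins with Dcc and the Unc5 receptors, and the ephrins with the Eph receptors. They were chosen by name alone, as the protein coding genes whose symbol belongs to one of these families, and no measured value entered the choice. They are 69 of 56748 genes in the table and of its 21970 protein coding genes. In mouse spinal cord they fell into 7 class 3 semaphorins, 13 semaphorins of classes 4 to 7, 11 plexins and neuropilins, 7 Slit and Robo genes, 9 netrin, Dcc and Unc5 genes, 8 ephrins and 14 Eph receptors. A filter on low values kept 63 of them for testing, and none of the 63 passed it through injured or uninjured libraries alone.

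Guidance ligands are read by a growth cone as attraction or repulsion, and in the adult many persist on neurons, glia, vessels and immune cells. Secreted class 3 semaphorins bind a neuropilin paired with a plexin, whereas most membrane-bound semaphorins bind plexins directly. Slits repel through Robo receptors, netrin 1 attracts through Dcc and repels through Unc5 receptors, and ephrins signal to Eph kinases in both directions between touching cells. In the injured cord, semaphorin 3A of the fibrous scar and ephrin B3 of myelin are known obstacles to axon growth.

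RNA came from bulk cord of mice at the lesion 7 days after spinal cord injury (SCI), or from the region given as matching in uninjured mice. The 4 groups are control uninjured (n = 3), control SCI (n = 4), AstroCSF1KO uninjured (n = 3) and AstroCSF1KO SCI (n = 4), where AstroCSF1KO stands for deletion of Csf1, a growth factor of microglia and macrophages, in astrocytes. The labels give neither the promoter behind the deletion, the deleted exons, the control genotype, the age of the mice nor whether each library is 1 animal, so a p-value measures only the spread between these samples. Levels are FPKM, read fragments relative to the gene's length and the library's size, and recovered reads came to 13263610 to 21969581 per library. Csf1 itself stood at 4.24 to 12.2 FPKM in uninjured controls against 8.23 to 11 with labelled knockout, and at 7.95 to 18.3 FPKM in injured controls against 16.4 to 19.9. The injured groups overlapped, and the uninjured groups overlapped through control replicate 1 (4.24 FPKM), whereas the other uninjured controls, at 11.9 and 12.2 FPKM, lay above all 3 labelled-knockout libraries. FPKM of bulk cord sums Csf1 over all cells, so these values can neither show nor refute a deletion in astrocytes. The AstroCSF1KO libraries are therefore called labelled knockout throughout, after their label.

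The libraries differ in quality, and unevenly between the genotypes, so library quality and genotype cannot be fully told apart. Of 3 control libraries that stand apart, 1 is uninjured (replicate 1) and 2 are injured (replicates 1 and 4): among their detected genes 1.45 to 2.06% had a single read, against 8.44 to 11.6% in the other 11. A further 4, all labelled knockout (replicate 3 of the uninjured, replicates 2, 3 and 4 of the injured), had 2.89 to 3.99% of reads on rRNA, where the remaining 10 had 0.290 to 0.764%. Values below stand in the order of replicate number, so the first uninjured control value and the first and last injured control values come from the 3 libraries that stand apart. The female transcript Xist and the Y-linked gene Ddx3y divide the libraries within each group. Among the 4 control libraries that do not stand apart, however, both uninjured ones hold Xist and both injured ones Ddx3y, so injury and sex cannot be told apart there. With labelled knockout, replicates 1 and 2 of either state hold Ddx3y, and uninjured replicate 3 and injured replicates 3 and 4 hold Xist. Comparisons of genotype without the 3 libraries that stand apart are thus unbalanced in sex.

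Marker genes of the tissue were measured beside the guidance genes. The 15 neuron markers summed to 2430 to 2850 FPKM in uninjured and 1290 to 1710 in injured controls, and to 2260 to 2630 and 1360 to 1560 FPKM with labelled knockout. All 15 were lower on injury in both genotypes, 14 of them called with labelled knockout. The 15 markers of microglia and macrophages summed to 129 to 220 and 1750 to 2540 FPKM in controls and to 191 to 233 and 2320 to 3500 FPKM with labelled knockout, and all 15 were called higher there. The 10 fibroblast and meninges markers summed to 43.6 to 55.6 and 177 to 727 FPKM in controls and to 20.3 to 41.9 and 157 to 440 FPKM with labelled knockout, where all 10 were called higher. The 10 astrocyte markers summed to 1520 to 1930 and 2420 to 3290 FPKM in controls and to 1700 to 1980 and 3020 to 3770 FPKM with labelled knockout, without overlap in either. Gfap held much of this rise, at 187 to 551 and 1020 to 1780 FPKM in controls and 409 to 543 and 1690 to 2200 FPKM with labelled knockout. Aldoc went from 560 to 575 FPKM to 425 to 450 FPKM with labelled knockout. There 4 of the 10 were called higher and 1 lower, with a median log2 change of 0.18. Of 10 endothelial markers 0 were called in that comparison, with sums of 92.8 to 123 FPKM before and 116 to 147 FPKM after injury. Posterior Hox genes, which mark the level of the cord, summed to 67.9 to 134 and 45.5 to 60.9 FPKM with labelled knockout, with 8 of 11 tested called lower. In controls they summed to 97.9 to 154 and 34.2 to 65.6 FPKM. Hoxc11 stood at 0.904 to 4.17 FPKM in uninjured libraries of both genotypes and at 0 in all injured ones. Hoxc12 stood at 1.21 to 3.74 and 0 FPKM, and Hoxd11 at 0.647 to 1.87 and 0 FPKM. Whether uninjured and injured libraries came from the same cord level was not tested, so injury and cord level cannot be told apart. Of the T and B cell markers, 9 of 10 did not pass the filter. The part of these cell types and of cord level in the changes below was not tested. In bulk tissue, fewer cells of a type and less RNA per cell cannot be told apart.

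The level of the guidance genes in uninjured cord covered a wide range. Over the 5 uninjured libraries that do not stand apart, the ephrin B3 gene Efnb3 was the most abundant of the 69, at 100 ± 8.09 FPKM (SD, n = 5), followed by Sema7a at 59.6 ± 1.79, Sema4d at 28.8 ± 1.07, Sema6b at 28.0 ± 2.78 and Unc5b at 23.0 ± 1.14 FPKM. Sema4d and Sema6b did not differ beyond their spread. Next came Ephb6 at 19.8 ± 1.02, Plxnb1 at 17.2 ± 1.59, Unc5a at 17.2 ± 0.924, Efna3 at 16.3 ± 1.63 and Sema6d at 14.1 ± 1.51 FPKM, where neighbours overlap. Ligands thus held the first 4 places and receptors 4 of the next 5. The lowest of the genes tested were Dcc at 1.30 ± 0.285, Epha6 at 1.30 ± 0.281, Sema3e at 1.15 ± 0.144 and Epha7 at 1.15 ± 0.117 FPKM. The 6 genes below the filter reached at most 1.81 FPKM in any library (Epha3), with highest values of 1.01 for Epha2, 0.871 for Efna4, 0.633 for Epha1, 0.292 for Ntn5 and 0.211 for Robo3.

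**Figure D1:**
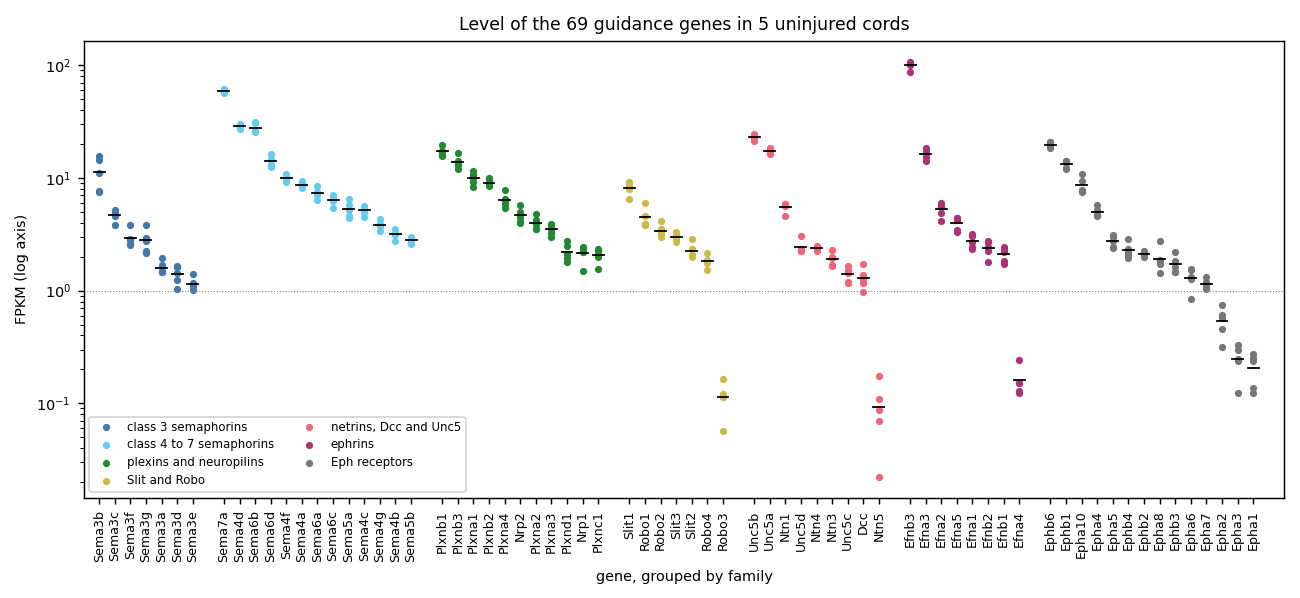
FPKM (log axis) of the 69 guidance genes by family in the 5 uninjured libraries that do not stand apart; points are libraries, black bars their means, values of 0 are not drawn and the dotted line marks 1 FPKM. Efnb3, at a mean of 100 FPKM, lies above every other gene, and Robo3, Ntn5, Efna4, Epha1, Epha2 and Epha3 lie under the line.

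In the 3 control libraries that stand apart, the guidance genes were split by the base composition of their transcripts. The difference on the log2(FPKM + 1) scale between these libraries and the rest of their own group, averaged over both states, fell with the GC content of the longest protein coding transcript (Spearman rho = -0.87 over 63 genes, and -0.86 over 13066 protein coding genes, all measured in the same libraries). All 34 guidance genes with a GC content of at least 55% were lower there in both states (median difference -1.41), and all 11 with less than 45% were higher in both (median 0.78). Unc5a, at 62.7% GC, differed by -2.70, and Efnb3, at 57.7%, by -2.44. Sema3d, at 39.2%, differed by 1.25, and Nrp1, at 50%, by -0.07. The guidance genes are richer in GC than protein coding genes at large, with a median of 55.8% against 50.3%, and longer in the genome, with a median span of 69 against 25.1 kb. The main control results are therefore given with and without these 3 libraries; no guidance gene was called on injury in controls with all libraries.

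**Figure D2:**
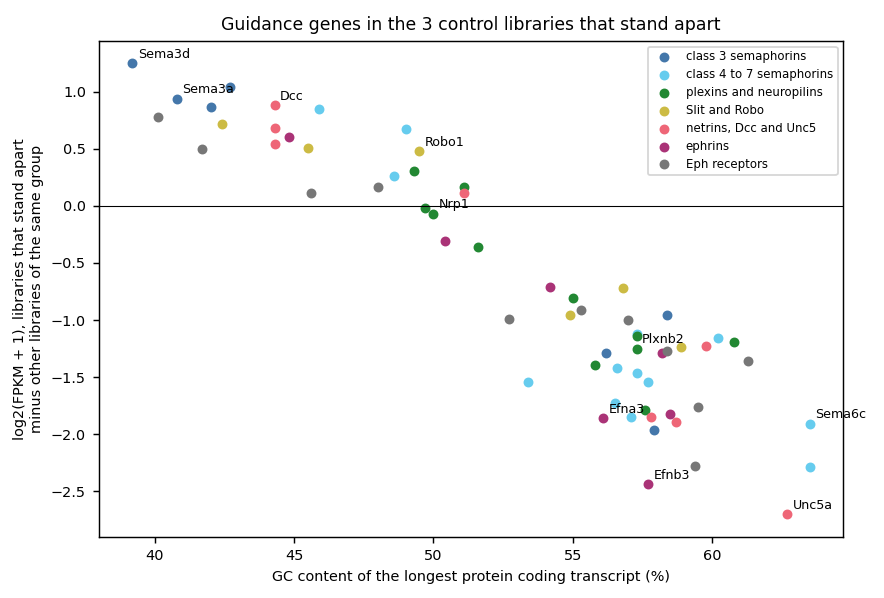
Difference in log2(FPKM + 1) between the 3 control libraries that stand apart and the other libraries of their group, averaged over uninjured and SCI, against transcript GC content (%), 1 point for each of 63 genes, coloured by family. Points run from Sema3d at 1.25 (39.2% GC) down to Unc5a at -2.70 (62.7% GC).

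Injury comparisons ask how guidance genes differed between injured and uninjured cord within a genotype. Among labelled-knockout libraries, the receptor genes Plxnb2, Plxnd1 and Nrp1 had the largest rises. The largest falls were those of the ephrin gene Efna3, the netrin receptor gene Unc5a and the semaphorin gene Sema6b, and all 3 Slits were called lower too. Of the 63 genes tested, 35 were called at a limma adjusted p under 0.05, 12 higher and 23 lower, which is 55.6%. The background was high: 45.8% of all 15155 genes tested were called, 19.7% higher and 26.1% lower. The shares among guidance genes were 19.0% higher and 36.5% lower, and their median log2 change was -0.177 against -0.0294 over all genes. Injured and uninjured libraries did not overlap for 38 of the 63, against 50.7% of all genes. With a median-ratio scaling, 15 guidance genes were called higher and 17 lower, against 25.5 and 18.1% of all genes (43.6% together), so the balance of rises and falls rests on the scaling. Without the 4 libraries rich in rRNA reads, 2 uninjured against 1 injured, 8 were called (background 9.54%): Plxnb2, Plxnd1, Nrp1 and Efnb1 higher and Efna3, Unc5a, Unc5b and Sema6b lower. In 1 fit of all 14 libraries, which takes its spread also from the control libraries that stand apart, Nrp1 was the only guidance gene called (background 7.53%).

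Control cords gave no call among the 63 guidance genes with limma, where 1.04% of all genes were called. At an unadjusted p under 0.05 there was 1 of 63, Nrp1, against 1456 of 15155 genes, and voom on recovered reads also called 0. With the replicate number as a block, 3 were called higher (background 6.8%): Plxnb2 at 1.32 (adjusted p = 0.0183), Nrp1 at 0.95 (adjusted p = 0.0355) and Plxnd1 at 0.93 (adjusted p = 0.0283). That block sets uninjured and injured replicate 1 together, which both stand apart, and the labels state no pairing. When the 3 libraries that stand apart were left out, leaving 2 injured against 2 uninjured, 20 of 63 were called, 5 higher and 15 lower, which is 31.7% against 23.9% of all genes (12.2% higher and 11.7% lower). The guidance genes called higher were 7.94% of the 63 and those called lower 23.8%. Among these controls the states did not overlap for 52 of 63 guidance genes and 67.4% of all genes. With all control libraries they did not overlap for 2 of 63 and 12.6% of all genes. The injury comparisons of the genotypes share no library. Of the 35 genes called with labelled knockout, 17 were also called in controls without the 3 libraries, 48.6% of the 35 and 85.0% of the 20. The same overlap was not counted over all genes, of which 45.8% and 23.9% were called in these fits. It is therefore not shown to be particular to guidance genes. Of these 17, 3 rose in both (Plxnb2, Plxnd1 and Nrp1) and 14 fell in both (Efna3, Unc5a, Sema6b, Epha10, Unc5b, Sema6c, Slit1, Slit3, Sema7a, Efnb3, Plxna4, Slit2, Epha4 and Robo1). Efnb1, Efnb2 and Epha6 were called in these controls and not with labelled knockout.

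**Figure D3:**
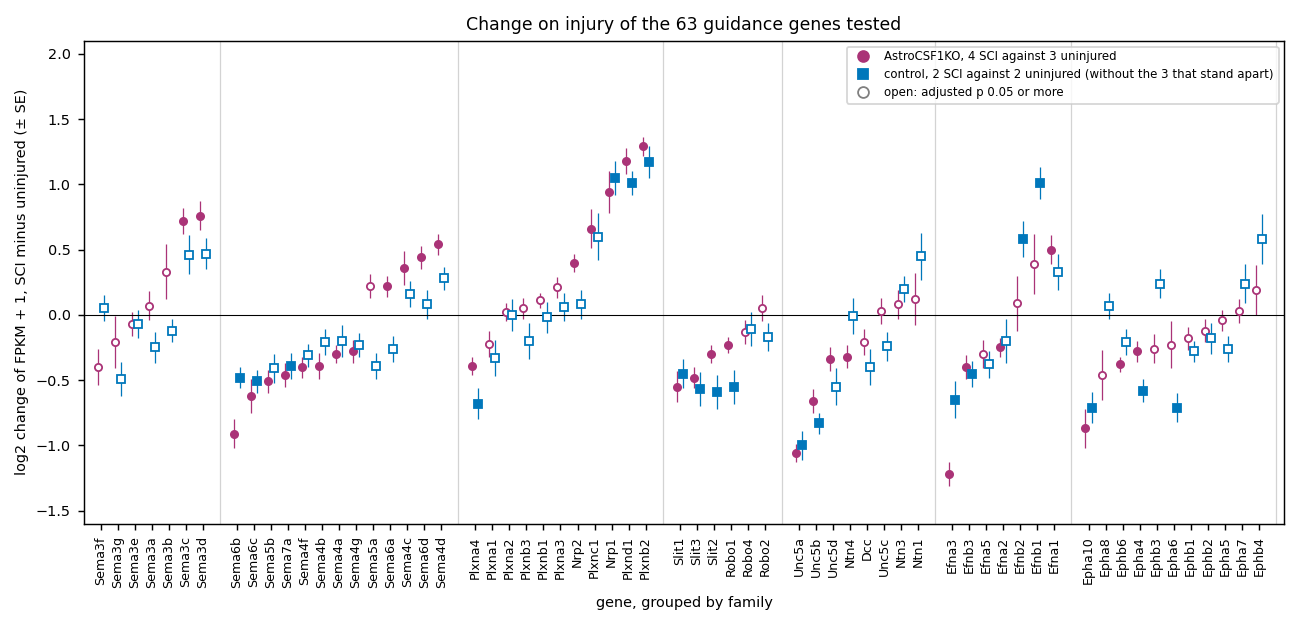
Log2 change of FPKM + 1 (± SE), SCI minus uninjured, for the 63 guidance genes tested, grouped by family: circles for labelled knockout (4 against 3 libraries), squares for control without the 3 libraries that stand apart (2 against 2), filled where the adjusted p is under 0.05. Plxnb2, Plxnd1 and Nrp1 lie near or above 1 in both genotypes, and Efna3 and Unc5a have the lowest circles, at -1.22 and -1.06.

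The sequences just before the start of 5 genes are shown because these genes carry the pattern: Plxnb2, Plxnd1 and Nrp1 are the 3 that rose in both genotypes, and Unc5a and Efna3 had the largest falls with labelled knockout. Each is the 250 bases upstream of a RefSeq gene start in GRCm38.p6, written 5′ to 3′ on the gene's strand, with GC boxes (GGGCGG on either strand) in capitals. They lie at chr15:89180789-89181038 (minus strand) for Plxnb2, chr6:115995006-115995255 (minus) for Plxnd1, chr8:128358823-128359072 (plus) for Nrp1, chr13:54949161-54949410 (plus) for Unc5a and chr3:89322940-89323189 (minus) for Efna3.
Plxnb2: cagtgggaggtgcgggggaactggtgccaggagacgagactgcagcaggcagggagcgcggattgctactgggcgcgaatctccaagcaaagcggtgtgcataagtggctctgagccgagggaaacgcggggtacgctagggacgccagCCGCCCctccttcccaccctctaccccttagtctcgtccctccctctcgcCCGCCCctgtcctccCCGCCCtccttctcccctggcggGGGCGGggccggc
Plxnd1: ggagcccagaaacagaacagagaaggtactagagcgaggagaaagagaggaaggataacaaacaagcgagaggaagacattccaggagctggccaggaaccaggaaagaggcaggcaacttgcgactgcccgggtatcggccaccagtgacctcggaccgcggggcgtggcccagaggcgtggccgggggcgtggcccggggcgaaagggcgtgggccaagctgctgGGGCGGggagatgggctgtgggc
Nrp1: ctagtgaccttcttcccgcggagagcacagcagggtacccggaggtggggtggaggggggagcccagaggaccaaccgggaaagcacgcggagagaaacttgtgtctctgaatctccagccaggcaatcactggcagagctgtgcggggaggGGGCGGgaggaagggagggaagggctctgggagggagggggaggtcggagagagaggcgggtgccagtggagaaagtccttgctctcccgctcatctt
Unc5a: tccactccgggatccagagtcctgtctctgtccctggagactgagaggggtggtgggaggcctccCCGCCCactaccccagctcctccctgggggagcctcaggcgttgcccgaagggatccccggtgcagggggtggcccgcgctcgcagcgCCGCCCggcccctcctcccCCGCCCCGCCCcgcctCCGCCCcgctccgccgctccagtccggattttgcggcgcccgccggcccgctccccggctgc
Efna3: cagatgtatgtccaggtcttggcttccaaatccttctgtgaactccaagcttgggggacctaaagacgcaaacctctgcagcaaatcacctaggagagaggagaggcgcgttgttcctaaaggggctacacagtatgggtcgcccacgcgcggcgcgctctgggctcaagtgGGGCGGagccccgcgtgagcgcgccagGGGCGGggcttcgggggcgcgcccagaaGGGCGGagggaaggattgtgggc
They hold 4, 1, 1, 5 and 3 GC boxes in that order, of which a pair in Unc5a overlap by 1 base, and their GC contents are 69.2, 64.8, 64.4, 76.8 and 63.6%. RefSeq promoters were found for 59 of the 69 genes, 75 in all. A GC box was present in 70.7% of them, in 57.0% of promoters of protein coding genes kept and in 32.7% of all 32851 promoters of that length. The AP-1 motif TGANTCA was in 4.0% of the guidance promoters, 4.54% of promoters of protein coding genes kept and 6.75% of all, and the STAT motif TTCNNNGAA in 2.67, 5.73 and 7.02%. Of the 5 shown, the AP-1 motif was in none and the STAT motif in Efna3 alone. Plxnb2 and Efna3 each have a second promoter in the table, of which the first listed is shown; the second holds 3 GC boxes in both genes and neither other motif. Genes that rose and genes that fell both carry GC boxes in these windows, and a match is no proof of a bound site.

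Plexins and neuropilins, the semaphorin receptors, held the largest rises. Of 11 tested, 5 were called higher and 1 lower with labelled knockout, and 3 higher and 1 lower in controls without the 3 libraries. Over all genes 19.7% were called higher and 26.1% lower with labelled knockout, and 12.2 and 11.7% in those controls. Family counts, here and below, were not compared with these shares by a test. Plxnb2 (chromosome 15, 89039752 to 89064991 of mm39), a receptor of class 4 semaphorins, stood at 9.01, 8.46 and 8.59 FPKM uninjured and at 24.8, 23.2, 22.3 and 20.6 FPKM injured with labelled knockout. In controls it stood at 3.03, 9.5 and 9.91 FPKM uninjured and at 11.4, 21.0, 25.4 and 9.38 FPKM injured. Every injured labelled-knockout library was above every uninjured one, and in controls the same held apart from the injured replicate 4, which stands apart. The log2 change was 1.29 ± 0.07 (SE, limma adjusted p = 1.21e-05), a fold of 2.44, with labelled knockout. In controls it was 1.10 ± 0.48 (adjusted p = 0.542), and with those 3 libraries left out 1.17 ± 0.12 (adjusted p = 0.00867).

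Plxnd1 (chromosome 6, 115931772 to 115971966), the plexin that binds semaphorin 3E and is known from developing vessels, rose from 2.11, 1.94 and 1.8 FPKM to 6.64, 4.84, 5.37 and 6.04 FPKM with labelled knockout. Control values were 0.671, 2.76 and 2.48 FPKM uninjured and 1.86, 6.25, 6.35 and 2.19 FPKM injured. The labelled-knockout groups did not overlap, whereas the control groups overlapped through the libraries that stand apart. The log2 change was 1.18 ± 0.10 (SE, adjusted p = 7.03e-05) with labelled knockout, 0.75 ± 0.47 (adjusted p = 0.815) in controls and 1.01 ± 0.09 (adjusted p = 0.00693) without the 3 libraries.

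Nrp1 (chromosome 8, 129085085 to 129229844) encodes neuropilin 1, the co-receptor of semaphorin 3A and of VEGF. Its uninjured levels were 2.2, 2.46 and 2.18 FPKM in controls and 2.41, 2.18 and 1.48 FPKM with labelled knockout. Injured levels were 4.44, 5.2, 6.58 and 6.62 FPKM in controls and 6.39, 4.48, 4.29 and 4.13 FPKM with labelled knockout. In both genotypes all 4 injured libraries lay above all 3 uninjured ones, the control libraries that stand apart included. Over all genes the states did not overlap for 12.6% in controls and 50.7% with labelled knockout. The change was 0.94 ± 0.16 (SE, adjusted p = 0.00178) with labelled knockout and 1.02 ± 0.20 (adjusted p = 0.0815) in controls, or 1.05 ± 0.13 (adjusted p = 0.0122) without the 3 libraries.

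Plxnc1, the receptor of semaphorin 7A, went from 2.26, 1.99 and 1.56 FPKM to 3.51, 3.74, 2.74 and 4.72 FPKM with labelled knockout (0.66 ± 0.15 SE, adjusted p = 0.00719). Its control values, 3.45, 2.25 and 2.32 against 3.35, 4.91, 3.22 and 6.41 FPKM, overlapped and were not called (0.55 ± 0.27, adjusted p = 0.637). Nrp2, the neuropilin that favours semaphorin 3F, was called higher with labelled knockout (0.40 ± 0.07), from a mean of 4.21 ± 0.232 (SD, n = 3) to 5.88 ± 0.515 FPKM (n = 4). Plxna4, which pairs with neuropilins for semaphorin 3A, was the one receptor of this family called lower. Its level went from 6.26, 5.38 and 5.83 to 3.91, 4.49, 4.01 and 4.46 FPKM with labelled knockout (-0.39 ± 0.07, adjusted p = 0.00341), and in controls from 4.16, 6.48 and 7.85 to 4.21, 3.94, 4.21 and 3.57 FPKM (-0.49 ± 0.23, adjusted p = 0.617, with all libraries and -0.68 ± 0.12, adjusted p = 0.021, with the 3 left out). The more abundant Plxnb1, receptor of semaphorin 4D, was not called, at 16.3 ± 0.581 FPKM uninjured (SD, n = 3) and 17.6 ± 0.921 injured (n = 4) with labelled knockout (0.11 ± 0.06 SE); with a median-ratio scaling it was called, at 0.22. Plxna1, Plxna2, Plxna3 and Plxnb3 were not called in either genotype, with changes from -0.22 to 0.21 with labelled knockout.

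**Figure D4:**
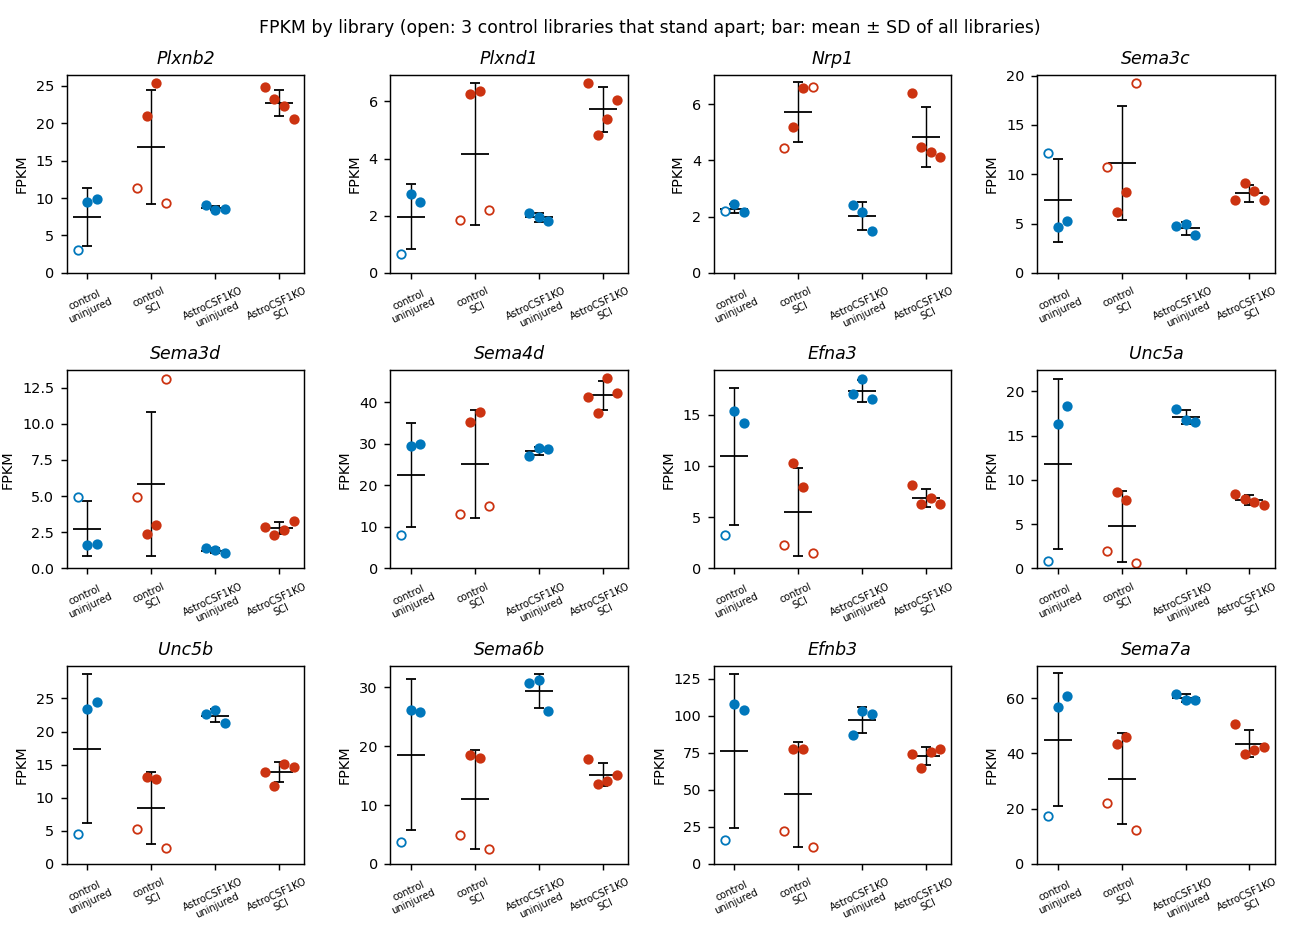
FPKM by library for 12 guidance genes in the 4 groups: blue uninjured, red SCI, open points the 3 control libraries that stand apart, bars the mean ± SD of all libraries of a group. Plxnb2, Plxnd1 and Nrp1 sit higher in injured labelled-knockout libraries, and Efna3, Unc5a, Unc5b, Sema6b, Efnb3 and Sema7a lower, in each case without overlap in that genotype.

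Class 3 semaphorins, the secreted ligands of neuropilins, had 2 of 7 called higher and 0 lower with labelled knockout, and 0 called in controls with or without the 3 libraries. Of all genes, 19.7% were called higher and 26.1% lower with labelled knockout. Sema3c stood at 4.72, 4.98 and 3.79 FPKM uninjured and at 7.37, 9.13, 8.29 and 7.39 FPKM injured with labelled knockout (0.72 ± 0.10 SE, adjusted p = 8.34e-04). Sema3d went from 1.43, 1.24 and 1.03 to 2.83, 2.34, 2.64 and 3.31 FPKM (0.76 ± 0.11, adjusted p = 8.43e-04). Neither gene overlapped between the states there, and both lost the call without the 4 libraries rich in rRNA reads, where the change was 0.52 for Sema3c (adjusted p = 0.076) and 0.72 for Sema3d (adjusted p = 0.0623) with a lone injured library.
Control values of Sema3d, 4.96, 1.61 and 1.66 FPKM uninjured and 4.93, 2.35, 3.0 and 13.1 FPKM injured, were dominated by the libraries that stand apart, whose highest value was more than any other library's. Without those 3 the change was 0.47 ± 0.12 for Sema3d (adjusted p = 0.0541) and 0.46 ± 0.15 for Sema3c (adjusted p = 0.0899). With all libraries it was 0.74 ± 0.55 for Sema3d (adjusted p = 0.904) and 0.54 ± 0.44 for Sema3c (adjusted p = 0.953).

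Sema3a, the classic repellent of the class, was low and not called. It stood at 1.45, 1.46 and 1.48 FPKM uninjured and 1.21, 1.66, 1.93 and 1.57 FPKM injured with labelled knockout (0.07 ± 0.11 SE, adjusted p = 0.646), and at 1.68 and 1.94 against 1.24 and 1.48 FPKM in the 4 controls that do not stand apart (-0.25 ± 0.12, adjusted p = 0.188, and -0.04 ± 0.40, adjusted p = 0.999, with all libraries). The injured libraries were lower in those controls and spread to both sides with labelled knockout. Sema3b was the most abundant of the class, at 7.51, 11.1 and 7.72 FPKM uninjured and 13.6, 7.66, 10.5 and 14 FPKM injured with labelled knockout (0.33 ± 0.21, adjusted p = 0.234). Leaving out the injured replicate 2 gave it 0.49 (adjusted p = 0.0479). Sema3e, Sema3f and Sema3g, at 0.98 to 3.85 FPKM outside the libraries that stand apart, were not called, with changes of -0.07, -0.40 and -0.21.

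Membrane-bound semaphorins of classes 4 to 7 moved in both directions, with 4 of 13 called higher and 8 lower with labelled knockout, and 0 higher and 3 lower in controls without the 3 libraries. All genes had 19.7% higher and 26.1% lower with labelled knockout, and 12.2 and 11.7% in those controls. Sema4d, a ligand of plexin B1 made by oligodendrocytes and immune cells, stood at 27.1, 29.0 and 28.7 FPKM uninjured and 41.1, 37.3, 45.8 and 42.2 FPKM injured with labelled knockout (0.54 ± 0.08 SE, adjusted p = 7.67e-04). Controls held 7.99, 29.4 and 29.9 FPKM uninjured and 13.0, 35.1, 37.5 and 15 FPKM injured (0.21 ± 0.58, adjusted p = 0.999; 0.28 ± 0.09, adjusted p = 0.0862, the 3 libraries left out). The 10 oligodendrocyte markers, among which Sema4d is not counted, summed to 5010 to 5510 FPKM before and 5030 to 5780 FPKM after injury with labelled knockout. The 15 markers of microglia and macrophages summed to 191 to 233 and 2320 to 3500 FPKM there. The part of either cell type in the change of Sema4d was not tested. Sema6d (0.44 ± 0.09), Sema4c (0.36 ± 0.13) and Sema6a (0.22 ± 0.08, adjusted p = 0.0492) were the other 3 called higher. Sema6a was the exception among the 35 called genes in that its change had the other sign in controls, -0.10 with all libraries and -0.26 without the 3, not called in either. Signs were not compared in this way over all genes, so their agreement is not shown to be particular to guidance genes.

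Sema7a, a lipid-anchored ligand of plexin C1 and integrins, stood at 61.6, 59.3 and 59.2 FPKM uninjured and 50.6, 39.9, 41.2 and 42.4 FPKM injured with labelled knockout (-0.46 ± 0.09 SE, adjusted p = 0.00302). In controls it stood at 17.4, 56.9 and 60.7 FPKM against 22.1, 43.4, 45.8 and 12.2 FPKM, where the libraries that stand apart are the 3 lowest (-0.52 ± 0.60, adjusted p = 0.999, and -0.39 ± 0.10, adjusted p = 0.0478, without them). Its receptor gene Plxnc1 thus changed in the other direction in the same labelled-knockout libraries. Sema6b, a transmembrane ligand of A-class plexins, fell from 30.8, 31.2 and 26.0 to 17.9, 13.5, 14.1 and 15.1 FPKM (-0.91 ± 0.11, adjusted p = 3.27e-04) and Sema6c from 7.08, 6.78 and 5.45 to 5.03, 3.26, 3.72 and 3.48 FPKM (-0.62 ± 0.13, adjusted p = 0.0064). Neither overlapped between the states with labelled knockout, and both were called lower in controls without the 3 libraries, at -0.48 ± 0.08 and -0.51 ± 0.09, and not with all libraries (-0.69 ± 0.85 and -0.70 ± 0.71, adjusted p = 0.999 for both). The other 5 called lower were Sema5b (-0.51 ± 0.09), Sema4f (-0.40 ± 0.08), Sema4b (-0.39 ± 0.10), Sema4a (-0.30 ± 0.07) and Sema4g (-0.28 ± 0.09). Sema5a was the 1 gene of the class not called, at 0.22 ± 0.09 (adjusted p = 0.0845).

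Slit ligands fell together with 1 Robo receptor. Of 6 Slit and Robo genes tested, 4 were called lower and 0 higher with labelled knockout, and the same 4, Slit1, Slit2, Slit3 and Robo1, were called lower in controls without the 3 libraries. Among all genes 26.1% were called lower with labelled knockout and 11.7% in those controls. Slit1, the most abundant, stood at 8.73, 8.28 and 6.55 FPKM uninjured and 5.33, 4.35, 4.56 and 6.04 FPKM injured with labelled knockout (-0.55 ± 0.12 SE, adjusted p = 0.00771). In controls it stood at 3.55, 7.97 and 9.26 against 2.14, 6.27, 5.77 and 1.27 FPKM (-0.79 ± 0.50, adjusted p = 0.825, with all libraries and -0.45 ± 0.11, adjusted p = 0.0433, with the 3 left out). All injured values were below all uninjured ones with labelled knockout and among the 4 remaining controls. Of all genes, 50.7% and 67.4% did not overlap in these sets. Slit2 went from 1.99, 2.06 and 2.05 to 1.45, 1.6, 1.42 and 1.41 FPKM (-0.30 ± 0.07, adjusted p = 0.0102) and Slit3 changed by -0.48 ± 0.08 (adjusted p = 0.00156).

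Robo1, the main receptor of Slits on spinal axons, stood at 3.9, 3.86 and 3.9 FPKM uninjured and 3.15, 3.38, 2.96 and 3.13 FPKM injured with labelled knockout (-0.23 ± 0.06 SE, adjusted p = 0.0141). Its control values were 7.43, 4.62 and 6.02 FPKM against 4.35, 3.22, 3.34 and 6.24 FPKM (-0.42 ± 0.27, adjusted p = 0.818, with all libraries and -0.55 ± 0.13, adjusted p = 0.0451, with the 3 left out). With labelled knockout the groups did not overlap, whereas in controls they overlapped through the libraries that stand apart. Its call ended with a median-ratio scaling (-0.15, adjusted p = 0.0849). Robo2 was not called, at 3.12 ± 0.131 FPKM (SD, n = 3) and 3.3 ± 0.507 (n = 4) with labelled knockout (0.05 ± 0.10 SE). Nor was the endothelial Robo4, at 1.71 ± 0.154 and 1.47 ± 0.173 FPKM (-0.13 ± 0.09).

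Among netrins and their receptors the falls lay mostly on the Unc5 side, which mediates repulsion. Of 8 tested, 4 were called lower with labelled knockout (Unc5a, Unc5b, Unc5d and Ntn4) and 0 higher, and Unc5a and Unc5b were also called lower in controls without the 3 libraries. The shares of all genes called lower were 26.1 and 11.7%. Unc5a (chromosome 13, 55097224 to 55153831) stood at 18, 16.8 and 16.5 FPKM uninjured and 8.38, 7.83, 7.55 and 7.13 FPKM injured with labelled knockout, a log2 change of -1.06 ± 0.07 (SE, adjusted p = 2.14e-05). In controls the values were 0.797, 16.3 and 18.3 FPKM against 2.01, 8.6, 7.72 and 0.62 FPKM (-0.91 ± 0.99, adjusted p = 0.999, with all libraries and -1.0 ± 0.11, adjusted p = 0.00944, with the 3 left out). Its injured level was below the uninjured level in every library that does not stand apart, whereas the 3 that do are the lowest of all. Unc5b, known also from vessels, fell from 22.6, 23.2 and 21.3 to 13.9, 11.7, 15.1 and 14.6 FPKM (-0.66 ± 0.09, adjusted p = 6.21e-04). Its remaining control values were 23.4 and 24.4 against 13.2 and 12.9 FPKM (-0.83 ± 0.08, adjusted p = 0.00857, and -0.90 ± 0.71, adjusted p = 0.933, with all libraries).

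Unc5d (-0.34 ± 0.09 SE) and Ntn4, a netrin of basement membranes (-0.32 ± 0.09), were called lower with labelled knockout and not in controls. Ntn1, the netrin that attracts commissural axons, was not called and spread widely after injury, from 5.67, 5.9 and 4.56 FPKM uninjured to 8.53, 4.1, 5.27 and 6.43 FPKM (0.12 ± 0.20, adjusted p = 0.652). In controls that do not stand apart it stood at 5.8 and 5.9 FPKM against 6.9 and 10 FPKM (0.45 ± 0.18, adjusted p = 0.138, and 0.32 ± 0.69, adjusted p = 0.999, with all libraries). Injured libraries lay above the uninjured ones in these controls and on both sides of them with labelled knockout. Its receptor Dcc, scarce in adult cord, stood at 1.37, 1.16 and 0.98 against 0.816, 0.865, 1.04 and 0.766 FPKM (-0.21 ± 0.10, adjusted p = 0.131) and was called with voom on recovered reads (adjusted p = 0.0338). Ntn3 and Unc5c changed by 0.08 and 0.03 and were not called.

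Ephrins split by member rather than by class. Of 7 tested, 1 was called higher (Efna1) and 3 lower (Efna3, Efnb3 and Efna2) with labelled knockout. Controls without the 3 libraries had 2 higher (Efnb1 and Efnb2) and 2 lower (Efna3 and Efnb3). All genes had 19.7% higher and 26.1% lower with labelled knockout, and 12.2 and 11.7% in those controls. Efna3, an A-class ligand found on neurons, had the largest fall of all 63 genes, from 17.0, 18.5 and 16.5 FPKM to 8.15, 6.31, 6.83 and 6.27 FPKM with labelled knockout (-1.22 ± 0.09 SE, adjusted p = 4.44e-05). In controls it stood at 3.21, 15.4 and 14.2 against 2.33, 10.3, 7.95 and 1.49 FPKM (-0.92 ± 0.70, adjusted p = 0.919, with all libraries and -0.65 ± 0.14, adjusted p = 0.0348, with the 3 left out). The states did not overlap in either set of libraries once the 3 were left out. Efna1, on chromosome 3 beside it, rose from 2.34, 2.69 and 2.42 to 3.59, 3.25, 4.41 and 4.6 FPKM (0.50 ± 0.11, adjusted p = 0.00633).

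Efnb3 (chromosome 11, 69444918 to 69451031), the midline barrier to corticospinal axons, stood at 86.8, 103 and 101 FPKM uninjured and 74.2, 64.4, 75.6 and 77.7 FPKM injured with labelled knockout (-0.40 ± 0.09 SE, adjusted p = 0.00725). The controls held 15.9, 108 and 104 FPKM against 22.1, 77.4, 77.6 and 11.2 FPKM (-0.67 ± 0.91, adjusted p = 0.999, with all libraries and -0.45 ± 0.10, adjusted p = 0.0365, with the 3 left out). It remained the most abundant guidance gene after injury in every library that does not stand apart. Efnb2, a ligand of arterial endothelium and of reactive astrocytes, stood at 2.78, 2.26 and 1.78 against 3.8, 1.62, 1.89 and 2.88 FPKM with labelled knockout (0.09 ± 0.21, adjusted p = 0.772). In the remaining controls it was 2.44 and 2.71 against 3.8 and 4.95 FPKM (0.58 ± 0.14, adjusted p = 0.0425, and 0.48 ± 0.32, adjusted p = 0.843, with all libraries). Injured and uninjured libraries thus overlapped with labelled knockout and not in these controls, and the difference between the genotypes was not called (-0.39 ± 0.40, adjusted p = 1 with all libraries).

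Efnb1, an X-linked ligand, was 2.22 and 1.82 FPKM uninjured and 4.7 and 5.46 FPKM injured in those controls (1.01 ± 0.12, adjusted p = 0.0111, and 0.51 ± 0.54, adjusted p = 0.999, with all libraries), where injury coincides with sex. With labelled knockout it stood at 2.36, 2.43 and 1.73 against 5.36, 2.29, 2.22 and 3.34 FPKM (0.39 ± 0.23, adjusted p = 0.206). Only injured replicates 1 and 4 lay above every uninjured library, of which replicate 1 holds Ddx3y and replicate 4 Xist. Without the 4 libraries rich in rRNA reads it was called, at 0.91 ± 0.10 (adjusted p = 0.0469), on the lone injured replicate 1. Efna5 changed by -0.30 ± 0.11 (adjusted p = 0.053) and was not called.

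Eph receptors had 0 of 11 called higher and 3 lower with labelled knockout, and 0 higher and 3 lower in controls without the 3 libraries. Of all genes, 26.1% were called lower with labelled knockout, a share near that of the Eph receptors, and 11.7% in those controls. Epha10, which lacks kinase activity, fell from 10.9, 7.71 and 7.84 to 5.29, 3.64, 4.75 and 3.72 FPKM with labelled knockout (-0.87 ± 0.15 SE, adjusted p = 0.00204) and from 7.51 and 9.36 to 4.84 and 4.64 FPKM in the remaining controls (-0.71 ± 0.12, adjusted p = 0.022, and -0.72 ± 0.66, adjusted p = 0.979, with all libraries). Ephb6, also without kinase activity and the most abundant of the family, went from 20.8, 19.9 and 19.0 to 15.1, 14.3, 14.6 and 16.3 FPKM (-0.38 ± 0.06, adjusted p = 0.00194), and was not called in controls (-0.21 ± 0.10 without the 3 libraries, adjusted p = 0.182). Epha4, the receptor through which ephrin B3 stops corticospinal axons, stood at 4.71, 4.62 and 4.69 FPKM uninjured and 3.25, 3.92, 3.44 and 4.14 FPKM injured (-0.28 ± 0.08, adjusted p = 0.0207). Its remaining control values were 5.2 and 5.8 against 3.34 and 3.36 FPKM (-0.58 ± 0.09, adjusted p = 0.0186, and -0.34 ± 0.20, adjusted p = 0.789, with all libraries). All injured values lay below all uninjured ones in both, but the labelled-knockout call ended without uninjured replicate 1, 2 or 3 or injured replicate 3 (adjusted p = 0.0561 to 0.0587) and with a median-ratio scaling (-0.19, adjusted p = 0.0746).

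The kinase-active B-class receptors were not called. Ephb2 stood at 2.09, 2.15 and 1.99 FPKM against 2.16, 1.53, 1.99 and 1.66 FPKM with labelled knockout (-0.12 ± 0.09, adjusted p = 0.323). Ephb4, the venous receptor of ephrin B2, stood at 2.21, 2.36 and 1.96 against 4.24, 2.37, 2.48 and 1.84 FPKM (0.19 ± 0.19, adjusted p = 0.438). Injured replicate 1 was the highest of these 7 libraries for both genes. Ephb1 and Ephb3 changed by -0.18 and -0.26, and Epha5, Epha6, Epha7 and Epha8 by -0.04, -0.23, 0.03 and -0.46, none called with labelled knockout. Epha6 was called lower in controls without the 3 libraries (-0.71 ± 0.11, adjusted p = 0.0192, and -0.44 ± 0.22, adjusted p = 0.632, with all libraries), at 1.32 and 1.54 against 0.479 and 0.498 FPKM. Epha8 had 0 reads in uninjured control replicate 1, which allows up to 3 reads and covers counting error only.

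Of a list of 61 partners that carry guidance signals into the cell, 59 were tested, with 11 called higher and 24 lower with labelled knockout, where 19.7% of all genes were called higher and 26.1% lower. The median log2 change was -0.14, against -0.0294 over all genes. Limk1, a kinase that stabilises actin through cofilin, fell from 43.6, 43.0 and 43.1 to 22, 21.2, 22.5 and 22.3 FPKM (-0.94 ± 0.05 SE). Grip2, a scaffold that binds ephrin B ligands, fell by 0.65 on the log2 scale, and Dpysl2, the collapsin response mediator of semaphorin 3A signalling, by 0.47. Cd72, a receptor of semaphorin 4D on immune cells, rose from 0.0601 to 0.128 FPKM to 1.75 to 3.6 FPKM (1.77 ± 0.18), and was also the 1 partner called in controls with all libraries (1.8 ± 0.18, adjusted p = 0.00673). Fes, a kinase downstream of plexin A1 in sensory neurons, rose by 1.16 ± 0.13 and Itgb1, the integrin subunit that binds semaphorin 7A, by 0.95 ± 0.11. Controls without the 3 libraries had 5 called higher and 13 lower, where 12.2 and 11.7% of all genes were.

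Genotype comparisons ask whether astrocyte deletion of Csf1 went with other levels of guidance genes, and they gave no call. All libraries that stand apart are controls and all those rich in rRNA reads are labelled knockout, so these comparisons also differ in library quality. In uninjured cords 0 of 63 guidance genes and 0.0% of all genes were called with limma, and 1 and 331 had an unadjusted p under 0.05; voom on recovered reads also called 0. Robo1 had the smallest p, with 3.9, 3.86 and 3.9 FPKM in labelled-knockout and 7.43, 4.62 and 6.02 FPKM in control libraries (-0.50 ± 0.20 SE, adjusted p = 0.603), followed by Sema5a (-0.51 ± 0.22) and Slit2 (-0.36 ± 0.17). All 3 labelled-knockout libraries lay below all 3 controls for each of the 3, as groups did not overlap for 14 of 63 guidance genes and 23.3% of all genes. Without the 3 control libraries that stand apart, 44 of the 63 were lower with labelled knockout and 0 were called. Both remaining controls hold Xist, whereas labelled-knockout replicates 1 and 2 hold Ddx3y. Lower with labelled knockout were all 11 plexins and neuropilins (median log2 difference -0.17) and all 6 Slit and Robo genes (median -0.19), of which 5 and 3 were lower with all libraries. These families were picked after their signs were seen. Lower in the others were 6 of 13 class 4 to 7 semaphorins, 6 of 11 Eph receptors, 4 of 7 ephrins, 5 of 7 class 3 semaphorins and 6 of 8 netrin, Dcc and Unc5 genes. The median difference was -0.124 for guidance genes and 0.00557 for all genes, whose signs were not counted. Sema3b then had the smallest p, at 15.8 and 14.3 FPKM in controls against 7.51, 11.1 and 7.72 FPKM (-0.73 ± 0.17, adjusted p = 0.381), and 12 of 63 guidance genes and 1973 of all genes had an unadjusted p under 0.05.

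In injured cords 0 of 63 guidance genes and 0.0% of all genes were called with limma, 1 and 497 had an unadjusted p under 0.05, and voom called 0. Groups did not overlap for 0 of 63, against 3.15% of all genes. Sema4d had the smallest p, at 41.1, 37.3, 45.8 and 42.2 FPKM with labelled knockout against 13.0, 35.1, 37.5 and 15 FPKM in controls (0.85 ± 0.35 SE, adjusted p = 0.477). The lowest 2 controls are those that stand apart, and the other controls overlap with labelled knockout. Plxna3 (0.49 ± 0.22) and Efna2 (0.82 ± 0.40) came next, with transcript GC contents of 55% and 58.5%. Without the 3 libraries the smallest p was that of Sema6a, at 7.56, 8.15, 9.22 and 8.25 FPKM against 6.54 and 6.3 FPKM (0.32 ± 0.08, adjusted p = 0.714). Both remaining controls hold Ddx3y, whereas labelled-knockout replicates 3 and 4 hold Xist.

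Whether the response to injury differed by genotype was tested over all 14 libraries, and a difference was called for 0 of 63 guidance genes and 0.0% of all genes, with 0 and 91 at an unadjusted p under 0.05 and 0 by voom. The smallest p values belonged to Sema6a (0.32 ± 0.20 SE, labelled knockout minus control), Nrp2 (0.24 ± 0.18) and Sema3f (-0.51 ± 0.43), each with an adjusted p of 1. Without the 3 libraries, in groups unbalanced in sex and in rRNA reads, Sema5a led at 0.61 ± 0.15 (adjusted p = 0.310). Its injury change was -0.39 in the remaining controls and 0.22 with labelled knockout, and 11 of 63 guidance genes and 2158 of all genes had an unadjusted p under 0.05. The rise of Plxnb2, Plxnd1 and Nrp1 and the fall of Unc5a and Efna3 were thus measured in both genotypes without a called difference between them, which does not show that the responses were alike. None of these genes, picked for these changes, was called in controls in the main fit with all control libraries. Without the 3 libraries they were called, but there injury and sex cannot be told apart.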

How the data were processed

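Poly(A)-selected RNA of 14 cord samples was sequenced in paired ends without keeping the strand, per the labels' protocols. Per the submitters' processing notes, CASAVA 1.8 and HISAT2 were used with mm39; for the counting program and annotation, the name is not given in the sources used here. FPKM values were deposited by the authors, with gene names, lengths and positions. Every FPKM value above 0 came out as a whole number of reads within 0.01 in each library (100%), which gave the depth and a voom alternative. Genes with at least 1 FPKM in at least 3 libraries were kept, 15155 in all. Limma 3.58.1 in R 4.3.3, with an intensity trend, was fitted to log2(FPKM + 1) over the libraries of the compared groups (all 14 for the difference of responses), with two-sided tests, p-values adjusted by Benjamini and Hochberg's method across all genes tested and a threshold of 0.05. The scripts were tested on simulated data. Log2 changes understate those of low genes.

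Genes and lists were chosen with earlier results of these data known. Named were the 6 largest called rises and 6 largest called falls without overlap, or the 3 smallest p where none was called; the most abundant and most changed member of each family; a fixed set of 17; genes below the filter; and up to 3 partners each way. Others were chosen after their values were seen. The median-ratio scaling shifted the median change of all genes with labelled knockout from -0.0294 to 0.058.

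Replicate numbers were checked for pairing by correlating deviations from group means across genes. For control injury the correlations were 0.616, 0.832 and 0.733, which counts as paired by the rule that each exceed 0.1. However, injured replicate 4 reached 0.831 with uninjured replicate 1, and injured replicate 3 reached 0.812 with uninjured replicate 2. Injured replicates 2 and 3 stood at -0.832 and -0.834 with uninjured replicate 1. Every sign follows which libraries stand apart, so these values do not show pairing by number. The labels do not state a shared animal or day. Promoters are RefSeq's of GRCm38.p6, matched by symbol. Transcript GC came from GENCODE on GRCm38, matched by gene identifier for 63 of 63 genes tested. Robo4 and Robo3 lie on opposite strands 0.554 kb apart and do not overlap as annotated. No strand was kept, so reads that run past an annotated end could not be told apart by strand. Results of 1 marker list are not reported here.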

Additional observations from a re-analysis of the deposited data

Results flagged for a closer look

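In groups of 4 libraries, a value far from the other 3 by Dixon's test was found in 3 of 74 groups of named genes, where chance gives about 1 in 20. Nrp1 stood at 6.39 FPKM in labelled-knockout SCI replicate 1 and at 4.13 to 4.48 FPKM in the other 3. Sema5a stood at 4.74 FPKM in the same library, against 6.0 to 6.04 FPKM. Plxnb1 stood at 19.0 FPKM in labelled-knockout SCI replicate 3, against 17.2 FPKM in each of the others. Labelled-knockout SCI replicate 1 is the injured library of that genotype that is not rich in rRNA reads (0.423% of reads). It also has the highest sum of fibroblast and meninges markers of the 4, 439.8 FPKM against 157.3 to 180.6, and of microglia and macrophage markers, 3500 FPKM against 2318 to 3157. Efnb1, Ntn1 and Ephb4 are highest in it as well; the part of these differences in the values was not tested.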

How the results depend on the processing

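The count of guidance genes called in controls on injury was 0, where 1.04% of all genes were called. It went to 1 with all 14 libraries in one fit (7.08% of all genes) and to 3 with the replicate block (6.8%). Without the 3 libraries that stand apart it went to 20 (23.9%). The count stayed at 0 when any single library was left out (0.099 to 0.825% of all genes called). It also stayed at 0 under 6 other settings (0.174 to 1.4%): a pseudocount of 0.1, no filter, a filter of 5 FPKM, TPM, median-ratio scaling and voom. The count with labelled knockout, 35, went to 1 with all 14 libraries in one fit and to 8 without the 4 libraries rich in rRNA reads, a fit on 3 libraries in which the lone injured sample is assumed to vary like the uninjured ones. When 1 library was left out it was 29 to 38, where 35.9 to 45.3% of all genes were called. Under the 6 other settings it ran from 24 of 32 tested (filter of 5 FPKM, 56.5% of all genes) to 39 (voom, 47.3%). No filter gave 31 of 69, where 16.8% of all genes were called. With the replicate block it was 30 (37.1%). The genotype comparisons and the difference of responses gave 0 guidance genes under all alternatives run. Over all genes, no filter called 0.0415% for the uninjured genotype comparison and 0.00831% for the injured one. An alternative added after seeing the data, without the 7 libraries that stand apart or are rich in rRNA reads, called 0 guidance genes in each. Of the named genes called with labelled knockout, 20 in all, 275 of 316 alternative values kept the call and 41 lost it; none turned its direction. The cause was not tested. Same-numbered libraries correlated at 0.158, -0.147 and 0.206 with labelled knockout, at most at 0.0673 between uninjured genotypes and at most at 0.0464 between injured ones, so they share only a number there and did not all correlate best with their own. Under the replicate block with labelled knockout (37.1% of all genes called), Sema4g, Slit2, Efna2, Robo1, Sema4c, Sema4b, Unc5d and Sema6a were not called, and Sema3f, Efna5 and Epha8 were. Genes near 1 FPKM, and controls reduced to 2 against 2 libraries, limit what can be called.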

Other observations

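Neighbouring guidance genes could move apart. On chromosome 3 of mm39, Efna1, Efna3 and Efna4 lie on 1 strand, with 32.8 kb between Efna1 and Efna3 and 10.4 kb between Efna3 and Efna4. With labelled knockout Efna1 was called higher on injury (0.50) and Efna3 lower (-1.22), while Efna4 did not pass the filter. Its values there were 0.152, 0.152 and 0.129 FPKM uninjured and 0.595, 0.413, 0.635 and 0.405 FPKM injured, without overlap, on at most 28 reads per library. Epha3 likewise stayed below the filter, at 0.33, 0.236 and 0.124 FPKM against 0.58, 0.462, 0.272 and 0.441 FPKM, which overlap. Its control values, 0.573, 0.296 and 0.248 FPKM uninjured and 0.788, 0.593, 1.36 and 1.81 FPKM injured, did not. Of all genes tested, 12.6% did not overlap in controls. Sema3b and Sema3f on chromosome 9, 72.3 kb apart on the same strand, changed by 0.33 and -0.40, neither called. These genes were picked after their values were seen.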
